A study of Homo sapiens with 9 samples.

Results

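H/ACA small nucleolar RNAs, which carry symbols beginning with SNORA, and small Cajal body RNAs, which carry symbols beginning with SCARNA, were examined in MDA-MB-231 cells treated with GNE-140. The members were all probe sets annotated with 1 symbol of either kind. Where a gene had several probe sets, the one with the highest mean over the 9 arrays was taken. This gave 81 genes, 61 SNORA and 20 SCARNA, which lay on 90 of the 53617 probe sets of the array. A further 34 symbols of these kinds stood only on probe sets annotated with several genes and were not analysed here.

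MDA-MB-231 is an established human triple-negative breast cancer line, and GNE-140 is a small molecule that blocks lactate dehydrogenase, the enzyme that makes lactate at the end of glycolysis. The arrays were Human Gene 2.1 ST GeneChips, run in 2 sets. By title and treatment label, set 1 held 2 GNE-140 arrays (1A and 1B) and 3 control arrays (1A, 1B and 1C), and set 2 held 2 GNE-140 arrays (2A and 2B) and 2 control arrays (2A and 2B), with a dose of 50 µM and a time of 24 h. The source name of 6 arrays, all 4 GNE-140 arrays and both control arrays of set 2, names a Boswellia preparation instead, and the sources used here do not settle which label is right, so every comparison below goes by title and treatment label. The numbers of arrays per group and set also differ between these labels and the study's text. Nothing in the labels says that the arrays of a group came from separate cultures, and the p-values therefore reflect the spread among these arrays alone, part of which may be technical.

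H/ACA RNAs fold into hairpins joined by a hinge (box H) and end shortly after an ACA triplet (box ACA). Held by the proteins dyskerin (DKC1), NOP10, NHP2 and GAR1, they pair with ribosomal RNA and guide the conversion of chosen uridines to pseudouridine. The small Cajal body RNAs work in the same way, or as box C/D RNAs that guide methylation of the ribose, on the small nuclear RNAs of the spliceosome. Most RNAs of both kinds are cut from introns of other genes, called host genes here, whose spliced product may or may not code for protein.

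The deposited values are log2 signals. Their median was 1.32 to 1.36 on the arrays of set 1 and 2.27 to 2.31 on those of set 2, so that levels were compared only within a set. Of 7 markers of mesenchymal basal breast lines, 6 lay above the median on all 9 arrays, among them vimentin (VIM), CD44 and moesin (MSN). Of 6 luminal markers measured, ESR1, PGR and FOXA1 lay below it on all 9 and 2, the adhesion gene EPCAM and GATA3, above it on all 9, while CDH1 lay on both sides. The summed linear signal of the 6 luminal markers measured was 27.3 to 28.2 on GNE-140 arrays against 29.1 to 32.1 on control arrays of set 1, and 48.3 to 51.7 on GNE-140 arrays against 61.3 to 73.7 on control arrays of set 2. The groups did not overlap in this sum in either set, and its part in the results below was not tested. Of 5 fibroblast and 5 leukocyte markers measured, 2 each lay below the median on all 9 arrays and 1 each above it, COL1A1 and CD68. CD68 stood at percentile 98.5 in set 1 and 98.9 in set 2. Both sums overlapped between the groups in set 2. The sum of the 7 mesenchymal markers was 2911 to 2992 on GNE-140 arrays against 2679 to 2846 on control arrays of set 2. It overlapped between the groups in set 1, and its part in the results was not tested. In set 1 the fibroblast sum was 10.8 to 11.1 on GNE-140 arrays against 11.7 to 12.2 on control arrays, and its part in the results was not tested either.

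Most of these RNAs gave a strong signal. On all 9 arrays, 66 of the 81 lay above the median of the array and 6 lay below it, while the other 9 lay on both sides. The highest signals came from SNORA23 (percentile 99.2 to 99.9 of the array), SNORA68 (99.3 to 99.7), SNORA21 (98.5 to 99.1) and SNORA12 (98.2 to 99.3). At the low end stood SNORA70F (percentile 0.36 to 24.6), SNORA11C (3.65 to 30.9) and SNORA70C (0.73 to 37.1). Since the signals of different probes are not on a common scale, these positions describe the probe sets and are not amounts of RNA. SNORA35, which lies in the serotonin receptor gene HTR2C and is known from brain, lay between percentiles 41.5 and 62.5.

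In set 1 many probe sets of the array carry exactly the same value on several arrays, which lowers the spread that a test can see. Among the H/ACA and Cajal body RNAs, 9 of 81 (11.1%) had 1 value on 3 or more of the 5 arrays, against 43.7% of all probe sets and 38% of those whose mean signal was above the median. SNORA11E had the value 3.90 on 4 of the 5 arrays, with 4.05 on GNE-140 array 1B. In 25 RNAs 2 arrays shared a value, and in 47 no value was repeated. The others with 3 equal values were SNORA15, SNORA38, SNORA54, SNORA58, SNORA70C, SNORA70D, SCARNA1 and SCARNA27.

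With the set as a block, none of the 81 RNAs passed the adjusted p threshold of 0.1 by limma, where 0.964% of all probe sets passed (517 of 53617). The lowest adjusted p was 0.112, for SNORA38B. None met the fuller criteria either, which also require a change of more than 2-fold that has 1 direction in set 1 and set 2 and which 0.177% of all probe sets met. At an unadjusted p under 0.05 from the same fit, 18 of the 81 RNAs (22.2%) were higher with GNE-140, against a background of 6% of all probe sets and 10% of those with a mean signal above the median, and 3 (3.70%) were lower, against backgrounds of 4.42% and 6.63%. In either direction this was 25.9% of the RNAs, against 10.4% of all probe sets and 16.6% of the bright ones. All 18 were above 0 in both sets, with log2 fold changes between 0.14 and 0.66 and adjusted p-values between 0.126 and 0.477. They were picked by a fit to the same arrays of both sets, which favours such agreement. No background share was taken for it, so it is no separate test. Over all 81 RNAs the direction was opposite in the sets for 32. The 3 lower ones were SNORA38B, SNORA80A and SCARNA8. Bright probe sets reach a low p more often on this array, and 71 of the 81 RNAs had a mean signal above the median.

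**Figure D1:**
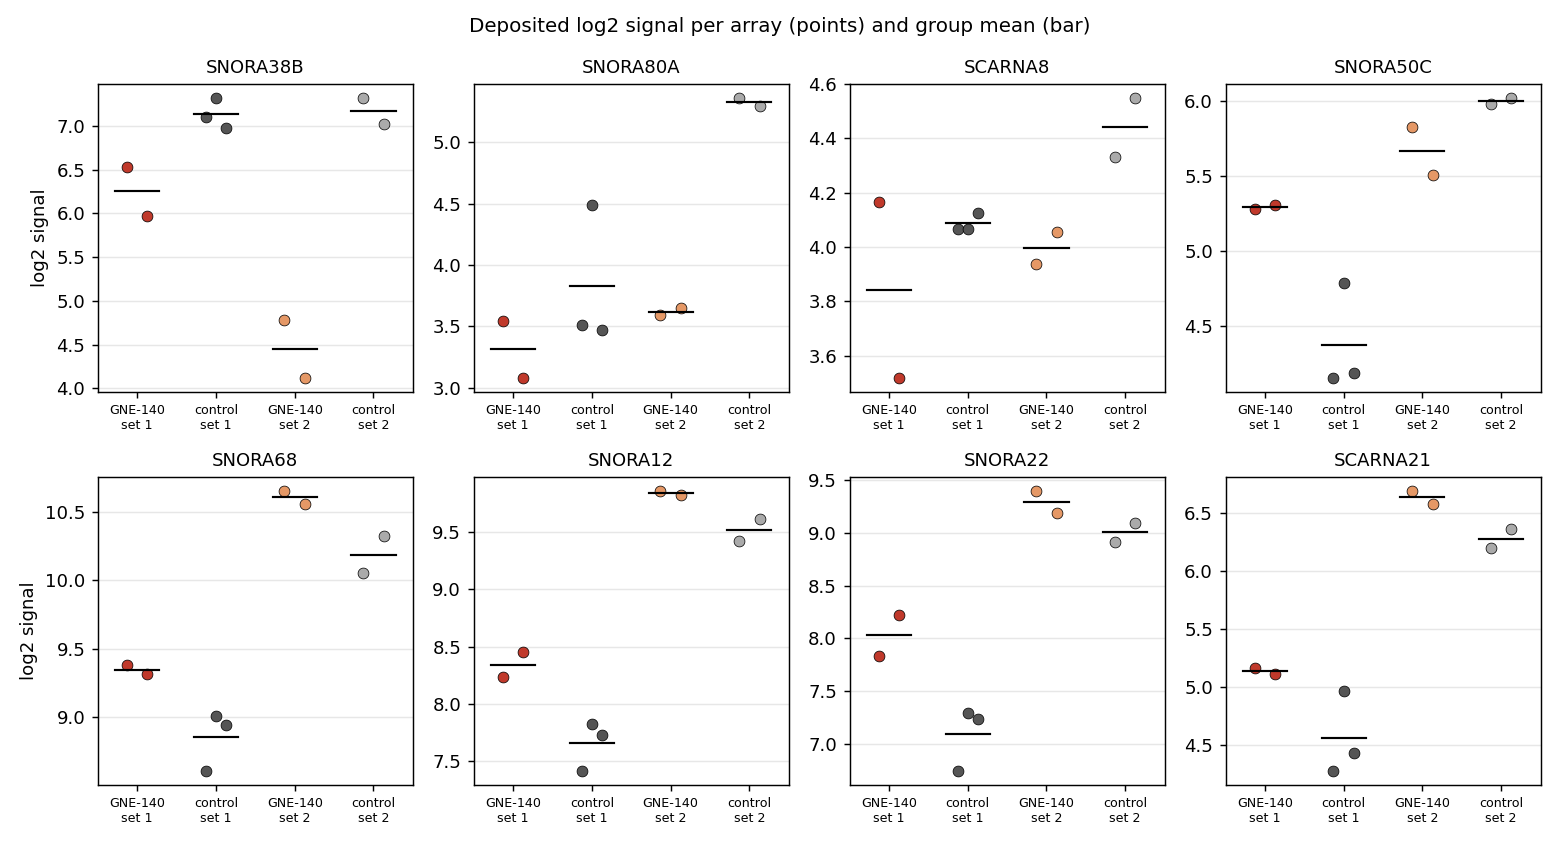
Deposited log2 signal (vertical axis, a separate scale for each RNA) of 8 H/ACA and Cajal body RNAs on each of the 9 arrays, as points, with GNE-140 and control of set 1 and then of set 2 along the horizontal axis and the group mean as a bar. SNORA38B lies below its controls in both sets, with GNE-140 arrays at 6.53 and 5.97 in set 1 and at 4.78 and 4.13 in set 2, whereas SNORA68, SNORA12, SNORA22 and SCARNA21 lie above theirs in both sets.

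SNORA38B, an H/ACA RNA within NOL11, a gene for a nucleolar protein, showed the largest difference of the 81. Its log2 signal in set 1 was 6.53 and 5.97 on the GNE-140 arrays, against 7.10, 7.31 and 6.98 on the control arrays. In set 2 it was 4.78 and 4.13 on the GNE-140 arrays, against 7.32 and 7.02 on the control arrays. Every GNE-140 array lay below every control array of its set. The log2 fold change with the set as a block was -1.72 (SE 0.36, 95% interval -2.54 to -0.90, adjusted p = 0.112 from limma), which is a signal 3.29-fold lower, and this was the 10th most negative of all 53617 probe sets. Within set 1 it was -0.88 (SE 0.22, adjusted p = 0.790 from limma) and within set 2 -2.72 (SE 0.26, adjusted p = 0.115 from limma), the second most negative of the array in set 2. The study lists SNORA38B among its down-regulated genes, unlike the fits here. The size it gives is that of set 2 alone here, a signal 6.59-fold lower. The difference between the sets was -1.84 (SE 0.36), with the lowest unadjusted interaction p of the 81 RNAs (0.0013) and an adjusted p of 0.349 from limma. In cells measured in bulk, fewer cells with the RNA and less RNA per cell cannot be told apart. Under 20 other settings the log2 fold change ranged between -2.05 and -1.42 and 5 of them brought the adjusted p under 0.1, for instance 0.0599 without GNE-140 array 1A and 0.0833 after quantile normalization.

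The gene of SNORA38B did not move with it. NOL11, which works in the early processing of ribosomal RNA, had log2 signals of 7.54 and 7.43 on the GNE-140 arrays of set 1, against 7.31, 7.40 and 7.40 on the controls, and 7.89 and 7.97 on the GNE-140 arrays of set 2, against 7.88 and 7.89 on the controls. Its log2 fold change was 0.08 (SE 0.058, adjusted p = 0.667 from limma). SNORA38, the other RNA of this name, lies in PRRC2A and had a log2 fold change of 0.08 (SE 0.083, adjusted p = 0.783 from limma), with -0.08 in set 1 and 0.27 in set 2. SNORA38 has 5 probe sets, of which the 4 not used here carry identical values on every array.

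SNORA80A was the only other RNA with a log2 difference larger than 1. In set 2 its signal was 3.59 and 3.65 on the GNE-140 arrays, against 5.36 and 5.29 on the controls, so the groups lay far apart. In set 1 it was 3.54 and 3.08 on the GNE-140 arrays, against 3.51, 4.49 and 3.47 on the controls, where GNE-140 array 1A lay above 2 of the controls. The log2 fold change was -1.06 with the set as a block (SE 0.29, adjusted p = 0.253 from limma), -0.51 in set 1 (SE 0.42) and -1.71 in set 2 (SE 0.12, adjusted p = 0.106 from limma). No probe set of the array had a lower adjusted p in set 2, but the adjustment can give the same value to several probe sets. URB1, the gene that holds SNORA80A and whose yeast relative acts in assembly of the large ribosomal subunit, had a log2 fold change of 0.05 (adjusted p = 0.833 from limma). The 2 other RNAs of this family measured here, SNORA80B and SNORA80E, had log2 fold changes of -0.17 and -0.01.

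SCARNA8 was the third RNA with a lower signal at an unadjusted p under 0.05. In set 2 it was 3.94 and 4.06 on the GNE-140 arrays, against 4.33 and 4.55 on the controls. In set 1 it was 4.17 and 3.52 on the GNE-140 arrays, against 4.07, 4.07 and 4.13 on the controls, so that array 1A lay above all controls and array 1B below them. The log2 fold change was -0.33 (SE 0.13, adjusted p = 0.428 from limma). With 1 array left out at a time it ranged between -0.50 and -0.22. The value of -0.50 came without GNE-140 array 1A, the one that lay above the controls. HAUS6, the gene around it, which belongs to the augmin complex of the mitotic spindle, had a log2 fold change of -0.08.

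Among the RNAs with higher signal, SNORA68 had the lowest p. Its log2 signal in set 1 was 9.38 and 9.31 on the GNE-140 arrays, against 8.61, 9.01 and 8.94 on the controls, and in set 2 it was 10.65 and 10.56 on the GNE-140 arrays, against 10.05 and 10.32 on the controls. The groups were separate in both sets, and the log2 fold change was 0.46 (SE 0.099, 95% interval 0.23 to 0.69, adjusted p = 0.126 from limma), or 1.37-fold. SNORA12, in CWF19L1, had 8.24 and 8.45 on the GNE-140 arrays of set 1, against 7.42, 7.82 and 7.73 on the controls, and 9.86 and 9.83 on the GNE-140 arrays of set 2, against 9.42 and 9.62 on the controls. It too was separate in both sets, with a log2 fold change of 0.52 (SE 0.12, 95% interval 0.26 to 0.79, adjusted p = 0.136 from limma). Both passed the threshold after quantile normalization and when dim probe sets were left out.

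SNORA22 and SNORA21 followed. SNORA22, which lies within both a pseudogene of a chaperonin subunit (CCT6P1) and a long non-coding RNA, had 7.84 and 8.22 on the GNE-140 arrays of set 1, against 6.75, 7.29 and 7.24 on the controls, and 9.39 and 9.19 on the GNE-140 arrays of set 2, against 8.91 and 9.09 on the controls. The log2 fold change was 0.64 (SE 0.17, adjusted p = 0.238 from limma), and it was 0.94 in set 1 and 0.29 in set 2. SNORA21, in the ribosomal protein gene RPL23, had a log2 fold change of 0.34 (SE 0.088, adjusted p = 0.213 from limma), with 8.29 and 8.28 on the GNE-140 arrays of set 1, against 7.80, 7.96 and 7.76 on the controls, and with 9.49 and 9.21 on the GNE-140 arrays of set 2, against 9.09 and 9.20. In set 2 the lower GNE-140 array and the higher control array of SNORA21 lay close together.

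SCARNA21, one of the Cajal body RNAs, had 5.16 and 5.11 on the GNE-140 arrays of set 1, against 4.28, 4.97 and 4.43 on the controls, and 6.69 and 6.58 on the GNE-140 arrays of set 2, against 6.20 and 6.36 on the controls. The log2 fold change was 0.48 (SE 0.14, adjusted p = 0.275 from limma), separate in both sets. SCARNA17, a box C/D RNA of Cajal bodies with a low p as well, had a log2 fold change of 0.27 (SE 0.095, adjusted p = 0.388 from limma), with nearly the same value in set 1 (0.26) and set 2 (0.27). Of the remaining RNAs among the 10 with the lowest p, SNORA72 had a log2 fold change of 0.50 (adjusted p = 0.266 from limma), SNORA77 0.33 (adjusted p = 0.275 from limma) and SNORA7B 0.32 (adjusted p = 0.287 from limma). With 1 array left out at a time SNORA72 ranged between 0.43 and 0.64. The second probe set of SNORA72, which is dimmer, had a log2 fold change of 0.04 (adjusted p = 0.873 from limma). SNORA72 lies in the ribosomal protein gene RPL30, SNORA77 in the calcium pump gene ATP2B4 and SNORA7B in a pseudogene of RPL32. The highest estimate, 0.66 for SNORA26, was also one of the least certain (SE 0.29, adjusted p = 0.477 from limma), since its GNE-140 arrays in set 1 read 4.46 and 3.45, against 3.35, 3.47 and 2.35 on the controls.

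Of the 6 RNAs with the highest control signal, SNORA68, SNORA12 and SNORA21 are given above and SNORA49 (log2 fold change 0.28, adjusted p = 0.299 from limma) was likewise among the 18 higher ones and separate in both sets, while SNORA23 had 0.12 and SNORA57 0.09. Of the 3 dimmest SNORA70C had -0.27, SNORA70F -0.21 (between -0.34 and -0.097 with 1 array left out) and SNORA11C -0.05. SCARNA9L, a box C/D RNA like SCARNA9, had 0.31 (SE 0.15, adjusted p = 0.530 from limma), and between 0.14 and 0.42 with 1 array left out.

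The fold changes of the 81 RNAs as a group were small. Their median log2 fold change was 0.12 with quartiles of -0.01 and 0.30, and 58 of 81 (71.6%) were above 0, against a median of 0.0049 and 51.5% above 0 over all probe sets, and 57.1% above 0 over those with a mean signal above the median. The SNORA members had a median of 0.14 and the SCARNA members of 0.027. Of the 71 RNAs with a mean signal above the median the median fold change was 0.14, against 0.030 over all bright probe sets, while the 10 dimmer RNAs had a median of -0.06. The 157 box C/D small nucleolar RNAs (SNORD) measured by the same rule, which guide ribose methylation of ribosomal RNA, had a median of 0.068, with 27 (17.2%) higher and 1 (0.64%) lower at an unadjusted p under 0.05, against 6% and 4.42% of all probe sets, and 2 past the adjusted threshold, which 0.964% of all probe sets passed. Over the 69 bright SNORD RNAs the median was 0.25 and 33.3% were higher, against 25.4% of the 71 bright H/ACA and Cajal body RNAs and 10% of all bright probe sets. The plot of cumulative fold changes sets the bright H/ACA and Cajal body RNAs beside these, and the difference between the curves was not tested.

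**Figure D2:**
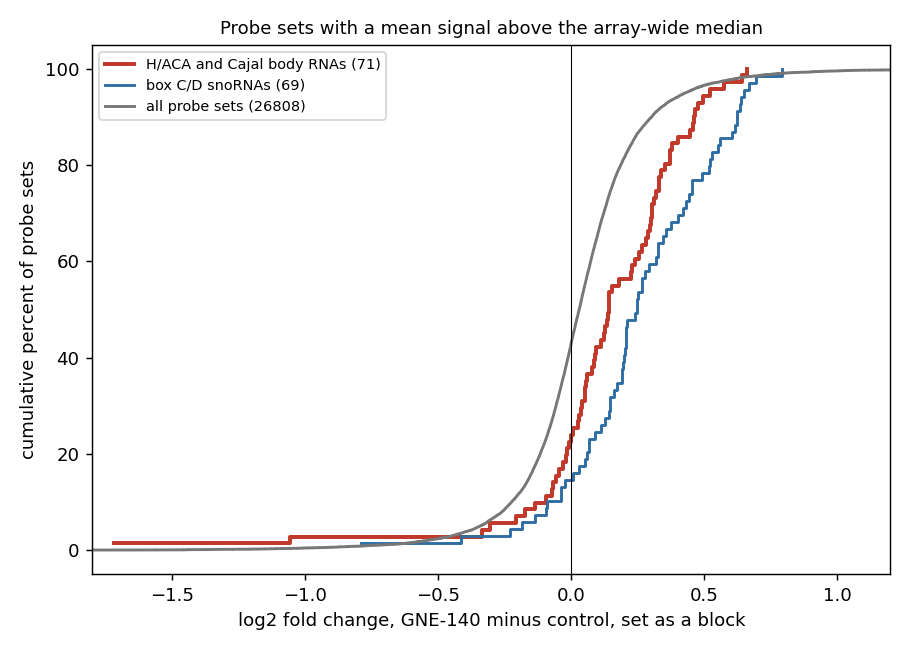
Cumulative percent of probe sets (vertical axis) against the log2 fold change of GNE-140 minus control with the set as a block (horizontal axis, drawn between -1.8 and 1.2), for probe sets with a mean signal above the median. The curves of the 71 H/ACA and Cajal body RNAs (median 0.14) and of the 69 box C/D RNAs (median 0.25) run to the right of the curve of all 26808 bright probe sets (median 0.030), and the H/ACA curve has a tail to the left made of SNORA38B and SNORA80A.

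Within each set, none of the 81 RNAs and no probe set of the array passed an adjusted p of 0.1 by limma. In set 1 the lowest adjusted p among the 81 was 0.602, and 11 were higher and 1 was lower at an unadjusted p under 0.05, against backgrounds of 2.53% and 2.07%. In set 2 the lowest was 0.106, and 4 were higher and 4 lower, against backgrounds of 6.14% and 4.21%. The median log2 fold change was 0.13 in set 1, with 60 of 81 above 0, and 0.10 in set 2, with 52 of 81 above 0. The direction was the same in both sets for 49 RNAs, 40 higher and 9 lower, and opposite for 32. In 13 RNAs (16.0%) every GNE-140 array lay above every control array of its set in both sets, against 2.72% of all probe sets and 4.94% of the bright ones, and in 1, SNORA38B, every one lay below, against 2.14% of all probe sets and 3.36% of the bright ones. The 13 were SNORA68, SNORA12, SNORA21, SNORA22, SCARNA21, SNORA7B, SNORA49, SNORA71A, SNORA47, SNORA24, SCARNA17, SNORA50A and SNORA78.

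**Figure D3:**
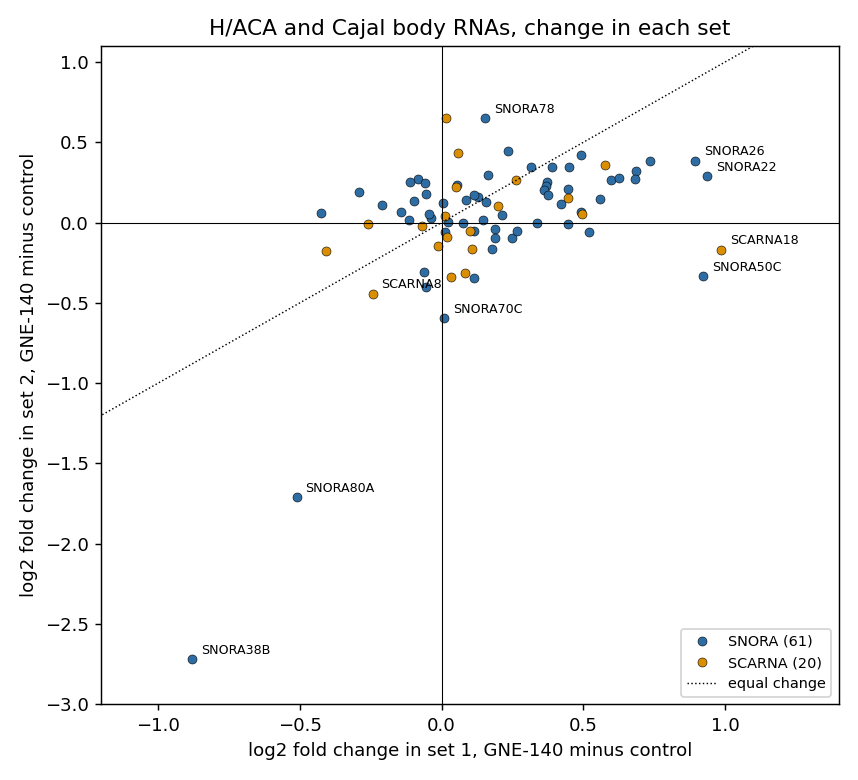
Log2 fold change of GNE-140 minus control in set 2 (vertical axis) against that in set 1 (horizontal axis) for the 61 SNORA and 20 SCARNA genes, with a dotted line where both are equal. SNORA38B and SNORA80A stand apart at the bottom left, with a larger size in set 2, while most RNAs lie between -0.5 and 1 in set 1 and between -0.5 and 0.5 in set 2.

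The response of single RNAs to GNE-140 was compared between the sets by the interaction of set and treatment. None passed an adjusted p of 0.1 by limma (lowest 0.349), where 0.0541% of all probe sets did, and 7 of the 81 had an unadjusted p under 0.05, against a background of 8.36%. This count was close to the background share and marks no excess among these RNAs. The 7 were SNORA38B, SNORA80A, SNORA38, SNORA50C, SNORA36C, SNORA70C and SCARNA18. SNORA50C went opposite ways: it had 5.28 and 5.30 on the GNE-140 arrays of set 1, against 4.15, 4.78 and 4.18 on the controls, but 5.83 and 5.51 on the GNE-140 arrays of set 2, against 5.98 and 6.02 on the controls. Its log2 fold change was 0.92 in set 1 and -0.33 in set 2. The difference was -1.26 (SE 0.30, adjusted p = 0.409 from limma), so a reversal between the sets was not established. The value of 0.35 with the set as a block lies between the estimates of the sets. SCARNA18 had 0.99 in set 1 and -0.17 in set 2 (difference -1.15, SE 0.39, adjusted p = 0.516 from limma). SNORA36C, which lay below the median of every array, had -0.29 in set 1 and 0.19 in set 2 (adjusted p of the difference 0.483 from limma). Of the 18 RNAs that were higher at an unadjusted p under 0.05, 14 had the larger fold change in set 1. Over all 81 RNAs, 48 had the larger absolute change in set 1 and 33 in set 2. The 18 were picked by a fit to the same arrays, 5 of set 1 and 4 of set 2, and these counts were not tested.

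In 2 RNAs the arrays of set 2 fell into pairs that cut across the treatment. SNORA2A read 5.27 and 2.41 on GNE-140 arrays 2A and 2B, against 1.88 and 5.70 on control arrays 2A and 2B. SCARNA3 read 6.57 and 4.53 on the same GNE-140 arrays, against 4.06 and 7.22 on the same control arrays. In both, GNE-140 array 2A and control array 2B lay more than 1 log2 unit above the other 2 arrays, and SNORA23 showed the same order with a smaller gap, at 10.99 and 10.13 on the GNE-140 arrays, against 10.05 and 11.18 on the controls. Over all probe sets this pattern occurred in 22 (0.041%), of which 3 had 1 gene symbol, and in none of the box C/D RNAs. In set 1 SCARNA3 was even, with 3.70 and 3.65 on the GNE-140 arrays, against 3.44, 3.83 and 3.70 on the controls. The log2 fold changes were 0.14 for SNORA2A (SE 0.82) and -0.03 for SCARNA3 (SE 0.63), the widest errors named here, so that a response smaller than this spread was not detectable in them. SNORA2B, a relative of SNORA2A, read 3.76 and 2.44 on the GNE-140 arrays of set 2, against 3.08 and 3.08 on the controls.

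**Figure D4:**
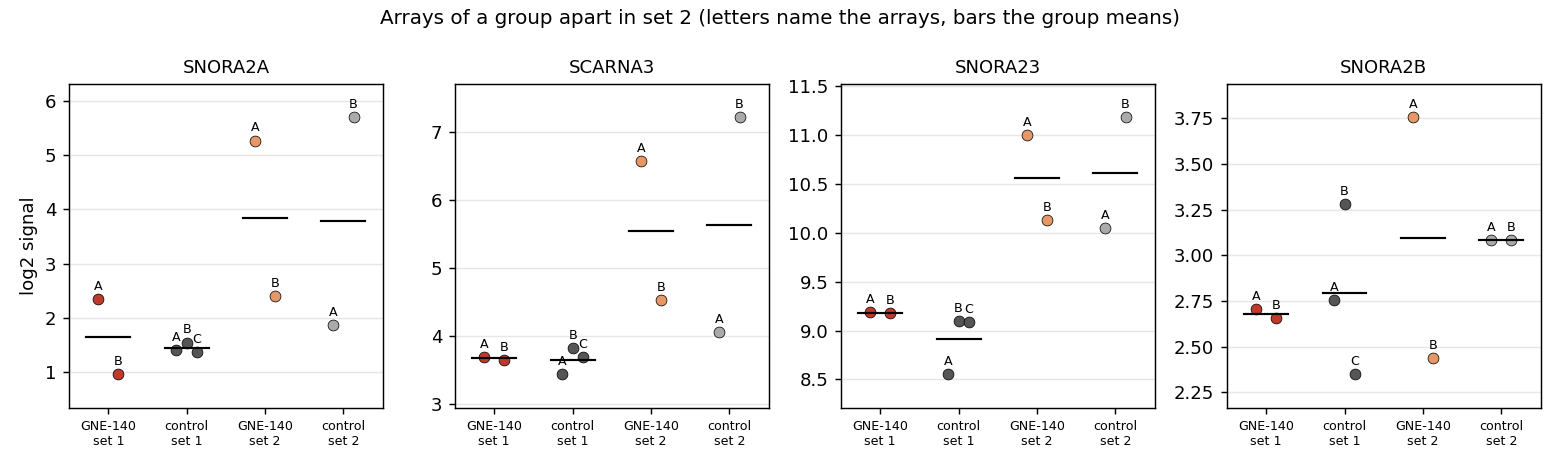
Deposited log2 signal (vertical axis, a separate scale for each RNA) of SNORA2A, SCARNA3, SNORA23 and SNORA2B on each array, lettered, with the group mean as a bar and GNE-140 and control of each set along the horizontal axis. In SNORA2A, SCARNA3 and SNORA23 GNE-140 array 2A and control array 2B stand above the other arrays of set 2, and the group means of set 2 are close together.

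SCARNA3 is shown by sequence because it is one of the 2 RNAs whose set 2 values go against the groups and because a microRNA, MIR1843, lies at its 3′ end, so that part of its sequence is known from the microRNA records of RefSeq (GRCh38.p14). The MIR1843 hairpin is chr1:175968370-175968479 on the minus strand, of which the first 83 of 110 bases lie within SCARNA3, and the mature microRNA is chr1:175968440-175968459. The gene positions used give no strand for SCARNA3, which was taken to lie on the strand of MIR1843, and its 3′ end here rests on that. In the hairpin, printed 5′ to 3′, capitals mark an ACA triplet 3 bases before the end of SCARNA3 so taken, where box ACA stands in RNAs of this class. In the mature microRNA capitals mark the seed (bases 2 to 8).
MIR1843 hairpin: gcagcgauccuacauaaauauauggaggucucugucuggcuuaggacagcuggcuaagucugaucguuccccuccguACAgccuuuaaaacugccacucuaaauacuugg
hsa-miR-1843: uAUGGAGGucucugucuggc

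The genes around the RNAs were set beside them by position in the RefSeq gene table. Of the 81 RNAs 80 had a position, 66 of them lay within exactly 1 other gene (60 different genes), 12 lay within several and 2, SCARNA2 and SNORA50C, within none. The table has no strand, so a gene here is the one whose span holds the RNA on either strand. For 54 RNAs that gene was measured on a probe set of its own. These RNAs and their genes differed in the same direction in 24 of 54 cases, and the correlation of the 54 pairs of log2 fold changes was r = 0.094 (Spearman's rho 0.13). Without SNORA38B and SNORA80A it was r = 0.16 (rho 0.14) over 52 pairs. These points share the arrays, and some share a gene, so this is a description.

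Of the 49 measured genes that hold an RNA, 3 (6.12%) passed the adjusted p threshold, against 0.964% of all probe sets, and at an unadjusted p under 0.05, 12 (24.5%) were higher and 7 (14.3%) lower, against 6% and 4.42% of all probe sets and 10% and 6.63% of the bright ones. RPL12, a protein of the large ribosomal subunit, rose by 0.79 on the log2 scale (adjusted p = 0.057 from limma). It had 4.76 and 4.47 on the GNE-140 arrays of set 1, against 3.76, 4.10 and 3.69 on the controls, and 5.44 and 4.93 on the GNE-140 arrays of set 2, against 4.49 and 4.24 on the controls. SNORA65, which it holds, had a log2 fold change of 0.37 (adjusted p = 0.385 from limma). ODC1, the first enzyme of polyamine synthesis, rose by 0.58 (adjusted p = 0.025 from limma), while its RNA SNORA80B had -0.17. POLA1, the catalytic subunit of DNA polymerase alpha, fell by 0.80 on the log2 scale (adjusted p = 0.043 from limma), with 4.58 and 4.36 on the GNE-140 arrays of set 1, against 5.31, 5.21 and 4.89 on the controls, and 4.28 and 4.70 on those of set 2, against 5.45 and 5.46. Its RNA SCARNA23 lay below the median of every array and had a log2 fold change of 0.02.

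Among the 18 RNAs that were higher at an unadjusted p under 0.05, 14 lay in a gene that was measured, of which 5 were higher and 1 was lower at the same level, beside the 12 and 7 of all 49 just given. Those that were higher were RPL12 with SNORA65, SNHG8 with SNORA24, SNHG17 with SNORA71A, DANCR with SNORA26 and ATP2B4 with SNORA77. SNHG8, SNHG17 and DANCR make long non-coding RNAs and had log2 fold changes of 0.44 (adjusted p = 0.112 from limma), 0.41 (adjusted p = 0.186 from limma) and 0.38 (adjusted p = 0.270 from limma). SNORA71A had a log2 fold change of 0.45 (adjusted p = 0.299 from limma), whereas SNORA71C, also in SNHG17, had 0.18, and SNORA71D, which lies in SNHG17 and another RNA gene, had 0.00. The 1 that was lower was CHD3, a chromatin remodeller, at -0.31 (adjusted p = 0.222 from limma), while SCARNA21 within it was at 0.48. Other pairs went apart as well, such as the condensin subunit gene NCAPD2 at -0.58 with SCARNA10 at 0.03, and the histone methyltransferase gene NSD2 at -0.43 with SCARNA22 at 0.30. The differences between an RNA and its gene were not tested.

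**Figure D5:**
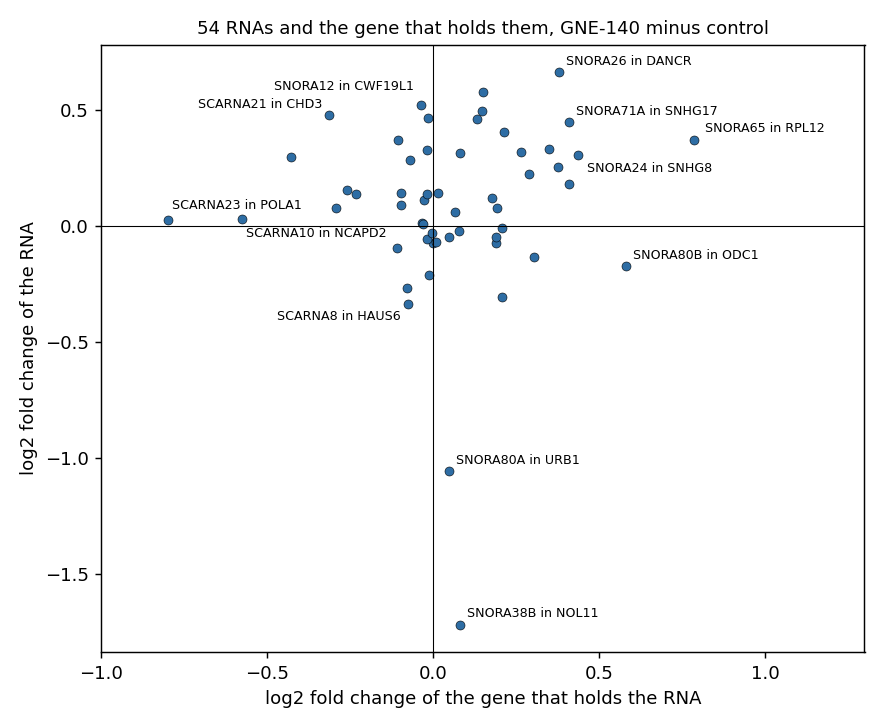
Log2 fold change of the RNA (vertical axis) against that of the gene that holds it (horizontal axis), both GNE-140 minus control with the set as a block, for the 54 RNAs whose gene was measured. SNORA38B in NOL11 and SNORA80A in URB1 lie at the bottom with their genes near 0, and RPL12, ODC1 and POLA1 lie at the sides with RNAs between -0.17 and 0.37.

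Genes for ribosomal proteins and many non-coding small nucleolar RNA host genes begin in a run of pyrimidines, which in the ribosomal protein mRNAs is known to tie translation to the mTOR pathway. The stretches around the start of some of the genes named above are printed to show which of them do so and which do not, as 30 bases before and 30 bases after the start from RefSeq (GRCh38.p14), 5′ to 3′ on the strand of the gene. Capitals mark a C followed by at least 4 C or T on that strand, beginning within 5 bases of the start. The stretches are chr9:127451377-127451436 (minus strand) for RPL12, chr4:118278732-118278791 (plus) for SNHG8, chr20:38435299-38435358 (minus) for SNHG17, chr4:52712364-52712423 (plus) for DANCR, chr1:203626802-203626861 (plus) for ATP2B4, chr2:10447983-10448042 and chr2:10448298-10448357 (minus) for the 2 starts of ODC1, chr21:32392983-32393042 (minus) for URB1 and chr17:67717906-67717965 (plus) for NOL11.
RPL12: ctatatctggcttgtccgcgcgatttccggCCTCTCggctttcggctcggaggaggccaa
SNHG8: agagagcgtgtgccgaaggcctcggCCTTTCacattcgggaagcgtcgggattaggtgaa
SNHG17: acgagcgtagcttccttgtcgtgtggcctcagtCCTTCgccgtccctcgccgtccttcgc
DANCR: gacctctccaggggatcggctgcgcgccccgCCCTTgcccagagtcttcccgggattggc
ATP2B4: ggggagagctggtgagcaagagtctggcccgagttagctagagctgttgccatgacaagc
ODC1 first start listed: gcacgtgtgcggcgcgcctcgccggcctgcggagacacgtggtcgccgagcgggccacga
ODC1 second start listed: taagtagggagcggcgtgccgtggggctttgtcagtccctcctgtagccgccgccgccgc
URB1: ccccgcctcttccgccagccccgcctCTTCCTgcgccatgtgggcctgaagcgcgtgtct
NOL11: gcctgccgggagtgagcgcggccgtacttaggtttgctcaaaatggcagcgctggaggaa

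RPL12, SNHG8, SNHG17, DANCR and URB1 had such a run, and ATP2B4, ODC1 and NOL11 had none in these windows. Of 10 genes with higher signal at an unadjusted p under 0.05 whose start was in the table, 5 had a run at a start and 5 had none, and of 7 with lower signal 1 (NCAPD2) had one. Counted by gene in the same way, 18 of the 49 genes that hold 1 of these RNAs and have a start in the table had one. Counted by start, 19 of the 66 starts of these 49 genes (28.8%) had one, against 21.1% of 35116 starts in the table. The counts by gene and by start are not on the same footing. The E box CACGTG, which reads the same on both strands and which MYC can bind, was present in the 300-base window of 10.6% of those 66 starts, against 7.26% of all. These are matches of letters, and no use of them was measured.

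The genes of proteins that work with these RNAs were examined as well. Of the H/ACA core proteins NOP10, NHP2 and GAR1 were measured on probe sets of their own, and DKC1 was not. None passed the threshold, where 0.964% of all probe sets did. NOP10 had 6.42 and 6.48 on the GNE-140 arrays of set 1, against 5.95 to 6.06 on the 3 controls, and 8.30 and 8.12 on the GNE-140 arrays of set 2, against 7.91 and 8.06 on the controls. The groups were separate in both sets, with a log2 fold change of 0.35 (SE 0.075, adjusted p = 0.129 from limma). NHP2 had 0.12 (SE 0.093) and GAR1 0.06 (SE 0.059).

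Among the other protein lists the shares at an unadjusted p under 0.05 were 19.4% higher (7 of 36) and 8.33% lower (3 of 36), against 6% and 4.42% of all probe sets and 10% and 6.63% of the bright ones. None of 6 assembly factors, 12 Cajal body proteins, 8 enzymes of RNA end processing, 6 box C/D proteins or 4 telomerase components passed the threshold. At an unadjusted p under 0.05 there were 1 higher and 1 lower among the assembly factors, 2 and 0 among the Cajal body proteins, 2 and 2 among the end processing enzymes, and 1 and 0 among both the box C/D proteins and the telomerase components. The largest value in these lists was that of TENT4B, the poly(A) polymerase that tags H/ACA precursors for trimming, with 4.35 and 4.32 on the GNE-140 arrays of set 1, against 3.23, 3.66 and 3.48 on the controls, and 4.95 and 5.18 on the GNE-140 arrays of set 2, against 4.60 and 4.88 on the controls. Its log2 fold change was 0.63 (SE 0.14, adjusted p = 0.147 from limma), and PARN, the nuclease that trims those tails, had -0.22 (adjusted p = 0.307 from limma). The assembly chaperone SHQ1 had 0.26 and PIH1D1 of the R2TP complex -0.30. TERC, the RNA of telomerase and itself an H/ACA RNA, had 0.08 (SE 0.094, adjusted p = 0.801 from limma). Of 22 listed non-coding host genes of small nucleolar RNAs in general, 12 were measured and none passed the adjusted threshold. At an unadjusted p under 0.05, 9 (75.0%, against 6% of all probe sets and 10% of the bright ones) were higher and 0 lower. The median log2 fold change of the list was 0.23. By position SNHG8, SNHG17 and EPB41L4A-AS1 held RNAs examined here, the last together with EPB41L4A. Others, such as GAS5, SNHG12 and ZFAS1, held none of those with a position. The share therefore describes this general list and not the hosts of the RNAs examined here. Among the listed genes, SNHG12 had 0.36 and ZFAS1 0.28.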

How the data were processed

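The deposited table holds log2 signals of 9 Human Gene 2.1 ST arrays, which the authors made with an expression console (scans to signals) before they evaluated them in the Transcriptome Analysis Console. Versions, summarization and normalization: not given in the sources used here. Probe sets were named through GEO's platform annotation (23866 with 1 symbol, 1852 with several, 27899 with none).

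All 53617 probe sets were fitted on the log2 scale with lmFit and eBayes of limma 3.58.1 in R 4.3.3, with set and treatment as terms, within each set, and with their interaction. P-values were adjusted by Benjamini-Hochberg over all probe sets. A probe set passed at an adjusted p under 0.1 and was called where p was also under 0.05, the fold change over 2 and the direction the same in both sets. The fits were tested on simulated data. The number of arrays limits the precision, and no depth applies to arrays.

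The text names SNORA38B and SNORA38, the 10 RNAs with the lowest p, the 6 with the highest control means and the 3 with the lowest, the 3 with the lowest interaction p, the 5 SCARNA with the lowest p, their host genes and the H/ACA core proteins. SNORA2A, SCARNA3, SNORA26, TENT4B and the other genes named were chosen after their values were seen. The members and lists were chosen with earlier results of these data known. Host genes were to be taken on the strand of the RNA, which the RefSeq table (GRCh38.p14) does not give, so spans on either strand were used; coordinates are printed only for sequences. Alternatives were other normalization, centring, filters, prior variance, probe set choice, blocks, and arrays left out.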

Additional observations from a re-analysis of the deposited data

How the results depend on the processing

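With quantile normalization 3 of the 81 RNAs passed the adjusted p of 0.1 by limma (SNORA12, SNORA38B and SNORA68). Of all 53617 probe sets 662 did. When dim probe sets were left out, 3 of the 71 RNAs kept passed (the same RNAs), as did 847 of all 26808 probe sets kept. With a trend in the prior variance 2 passed (SNORA38B and SNORA68). When probe sets with repeated values in set 1 were left out, 1 passed (SNORA38B). The shares over all probe sets in the last 2 settings are not given here. With an ordinary linear model, which does not borrow spread across probe sets, 0 passed. In the 4 settings given first SNORA38B had log2 fold changes of -1.81, -1.72, -1.72 and -1.72, in that order, with adjusted p-values of 0.0833, 0.0673, 0.0975 and 0.0756. In set 2 alone 2 passed (SNORA38B and SNORA80A) after quantile normalization, and 2, again these, without dim probe sets. The shares over all probe sets for set 2 alone are not given here. Without the set term 0 RNAs were higher at an unadjusted p under 0.05, where only 293 of all 53617 probe sets were. The median log2 fold change of the RNAs was 0.25, against 0.085 for all probe sets. SNORA11C then had 0.011 and SNORA36C 0.039, the opposite direction. Without GNE-140 2A and control 2B, chosen after seeing the data, 1 RNA was lower (SNORA38B) and SNORA11C had 0.010. With the lowest probe set of each gene SNORA72 had 0.04. The cause was not tested in any of these.

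Leaving out 1 array at a time gave 0 to 2 RNAs past the threshold with the set as a block (SCARNA8 and SNORA38B without GNE-140 1A, SNORA72 without control 2B). In set 1 alone it gave 0 to 2 (SCARNA8 and SNORA11E without GNE-140 1A, SCARNA1 and SNORA15 without GNE-140 1B), where the lone GNE-140 array was assumed to vary like the controls. SNORA38B ranged between -2.05 and -1.42, SNORA11C between -0.16 and 0.051, SNORA36C between -0.13 and 0.037 and SNORA23 between -0.049 and 0.36. The counts of RNAs at an unadjusted p under 0.05 ranged between 16 and 22 higher and between 2 and 4 lower. The shares over all probe sets with 1 array left out are not given here.

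Whether arrays with the same letter are paired could not be settled. Their deviations correlated at 0.030 and -0.15 in set 1 and at -0.0025 in set 2 over all probe sets. The deviations of the 2 GNE-140 arrays of a set mirror each other, so these values are not independent and cannot exclude a pairing. With the replicate block 0 RNAs passed, and 0 of all 53617 probe sets did. At an unadjusted p under 0.05, 15 of the 81 RNAs were higher and 4 lower, against 2598 and 2050 of all probe sets. SNORA38B had -1.84 (adjusted p = 0.353 from limma) and the median of the RNAs was 0.14. Within set 1 and set 2 the replicate block gave 0 past the threshold and medians of 0.13 and 0.10. For the difference between the sets, 0 RNAs passed under each of 4 alternatives.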

Other observations

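Over the 81 RNAs, the deviations of GNE-140 array 2A and control array 2B from their group means correlated at r = 0.68. Without SNORA2A and SCARNA3 the correlation was 0.18, and without SNORA23 as well it was 0.11. Over the 157 box C/D RNAs it was 0.0060 and over all probe sets 0.0025. The opposite pattern, with GNE-140 2B and control 2A both more than 1 log2 unit above the other arrays of set 2, occurred in 30 probe sets and in none of the 81 RNAs. These are descriptions across genes of 4 arrays, and their cause was not tested.

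The 6 members of the SNORA70 family measured here had log2 fold changes between -0.27 (SNORA70C) and 0.58 (SNORA70G) with a median of 0.03, and none had an unadjusted p under 0.05. SNORA70G read 3.29 and 3.66 on the GNE-140 arrays of set 1, against 3.40, 2.72 and 2.11 on the controls, so the groups overlapped.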
